A study of Mus musculus with 2 samples.

Results

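This account covers 9 miRNA genes of the nervous system in mouse adrenal gland: Mir137, Mir338, Mir138-1, Mir138-2, Mir128-1, Mir128-2, Mir218-1, Mir218-2 and Mir9-3. They were chosen by symbol, as nervous system miRNAs other than Mir132, Mir212 and the Mir7 genes, and all 9 were found among the 2202 miRNA genes of the tables. Whole adrenal gland of C57BL/6J mice, an inbred laboratory strain, had been taken for total RNA, and small RNA libraries with inserts under 30 nt were sequenced. Both libraries belong to 1 group, called wild type in a free-text label, and are numbered as biological replicates 1 and 2. The labels give age and developmental stage as unknown, call the tissue male in that same label while the sex field says that sex was not collected, and trace both biosamples to the same donor record. Beyond the numbering as biological replicates, nothing in the labels shows that the replicates come from separate animals. Whether their spread is one between animals or purely technical cannot be told.

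The adrenal medulla holds chromaffin cells, which arise from the neural crest and release catecholamines, together with nerve fibres, ganglion cells, Schwann cells and glia-like supporting cells, while the cortex makes steroids. A miRNA is cut from a hairpin precursor, and bases 2 to 8 of the mature strand, the seed, pair with target mRNAs. miR-137, miR-128, miR-138 and miR-9 are known as miRNAs of neurons or their progenitors, miR-218 as a miRNA of motor neurons, and miR-338 as a miRNA of oligodendrocyte differentiation. The samples are whole gland, so neither medulla and cortex nor the cell types within them are separated, and few cells with much of a miRNA cannot be told apart from many cells with little.

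The 9 genes make 6 main mature strands. These are printed because they decide which reads could be counted, with the seed in capitals, as RefSeq gives them on GRCm38.p6, written 5′ to 3′.
miR-137-3p (Mir137): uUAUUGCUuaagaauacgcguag
miR-338-3p (Mir338): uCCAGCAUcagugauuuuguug
miR-138-5p (Mir138-1 and Mir138-2): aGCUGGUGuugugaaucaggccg
miR-128-3p (Mir128-1 and Mir128-2): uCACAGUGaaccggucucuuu
miR-218-5p (Mir218-1 and Mir218-2): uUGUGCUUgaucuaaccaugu
miR-9-5p (Mir9-3): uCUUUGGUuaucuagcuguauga

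The 6 seeds differ from each other, so the genes form no seed family beyond the copies. The naming of a main and an other arm follows general knowledge of these miRNAs and was not measured, since the tables count reads per hairpin and not per arm. Reads that mapped to several places were set aside in a summary line that held 37.8% and 38.8% of mapped reads in replicates 1 and 2. A strand made from identical copies can therefore lose its reads. Windows of 20 nt within each arm were searched for in the other miRNA hairpins on both strands. A window found in no other hairpin existed in the main arm of 2 of the 9 genes, Mir137 and Mir338. The main arms of the other 7 genes had none.

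Copies of a gene differed in the other arm. In the following sequences the capitals mark the bases at which the copies differ when they are aligned without gaps.
miR-138-1-3p: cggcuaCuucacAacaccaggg
miR-138-2-3p: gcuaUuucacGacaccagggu
miR-128-1-5p: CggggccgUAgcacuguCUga
miR-128-2-5p: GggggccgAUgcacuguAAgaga
miR-218-1-3p: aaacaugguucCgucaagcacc
miR-218-2-3p: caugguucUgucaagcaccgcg

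The miR-138 3p strands differed at 2 of 20 aligned bases (C7U and A13G, counted from the 5′ end of miR-138-1-3p), the miR-128 5p strands at 5 of 21 and the miR-218 3p strands at 1 of 19 (C12U, counted from the 5′ end of miR-218-1-3p). Of the 9 genes, 8 had an other arm with a window found nowhere else among the hairpins. Mir9-3 was the exception, since neither of its arms had such a window. The stretch that copies share around the main arm was 24 nt for Mir138, 23 nt for Mir128, 22 nt for Mir218 and 26 nt for Mir9-3 with Mir9-1 or Mir9-2. A read that reaches past this stretch can be placed at 1 copy. Under exact matching among hairpins, the counts of the 7 duplicated genes can come only from the other arm, from the rest of the hairpin or from main-arm reads that reach past the shared stretch, and they give no level of the main strand.

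**Figure D1:**
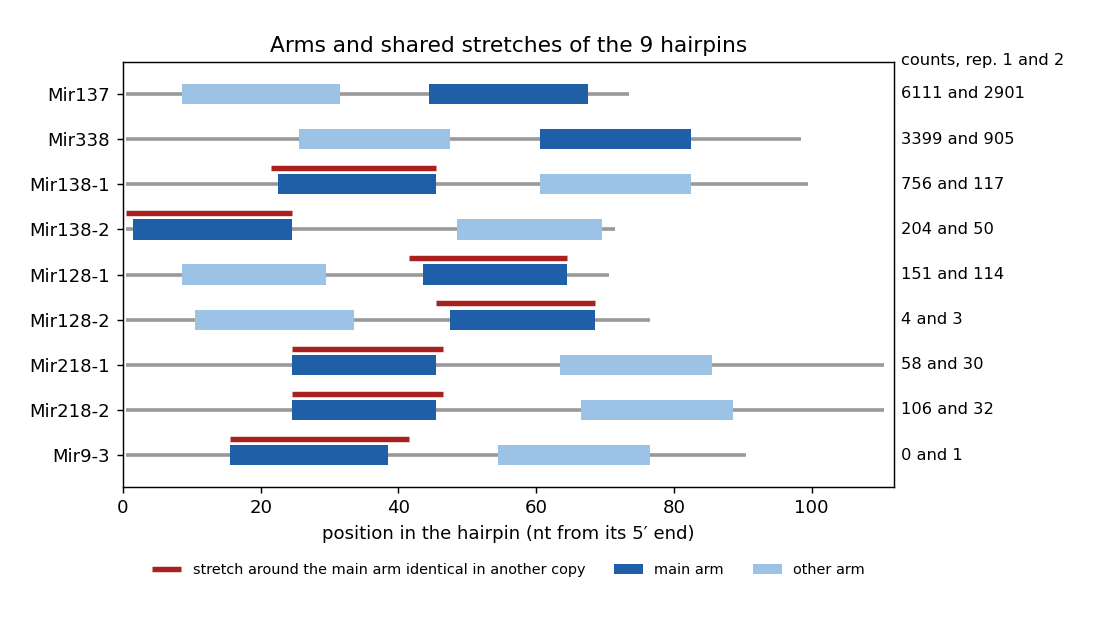
Each line is a hairpin, drawn in nt from its 5′ end, with the main arm in dark blue, the other arm in light blue and, in red, the stretch around the main arm that is identical in another copy; the counts in replicates 1 and 2 stand at the right. Mir137 and Mir338 carry no red stretch and have the 2 highest counts, and in the other 7 genes the red stretch covers the whole main arm.

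Counts on the strand of a miRNA gene summed to 10263894 in replicate 1 and 3525666 in replicate 2, and levels are given per 1000000 of these (CPM). A CPM here is a number of reads per hairpin gene, with no scaling by length, since each read comes from a short RNA. It is not a number of molecules, since PCR copies cannot be told apart. Together the 9 genes made up 0.105% of the replicate 1 counts and 0.118% of those of replicate 2, with a mean of 0.111% ± 0.009 (SD, n = 2). Mir137 and Mir338 made up most of it, with 56.6% and 31.5% of the counts of the 9 genes in replicate 1 and 69.9% and 21.8% in replicate 2. A gene was called detected from 10 CPM upward in each replicate, which held for 5 of the 9, namely Mir137, Mir338, Mir138-1, Mir128-1 and Mir138-2. Over all miRNA genes 267 of 2202 were detected (12.1%), a table in which 1435 genes had no count.

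Mir137, whose product is known for its part in neuronal maturation, was the most abundant of the 9. It had 595 CPM in replicate 1, from 6111 counts (exact Clopper-Pearson 95% interval from 581 to 611 CPM), and 823 CPM in replicate 2, from 2901 counts (793 to 853 CPM). The mean was 709 ± 161 CPM (SD, n = 2), which placed it at rank 84 of the miRNA genes. Both replicate values of Mir137 lay above those of every other gene of the 9. Mir137 (ENSMUSG00000065569.2) lies on mm10 chromosome 3 from 118433857 to 118433929, in an exon of the noncoding transcript Gm26871. The nearest annotated miRNA gene, Gm24155, starts 792 bases downstream and had no count in either replicate.

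Mir338 was second. It lies in an intron of Aatk, a kinase gene active in the nervous system, and its product is known from the myelinating glia of the brain. Its level was 331 CPM in replicate 1 (3399 counts) and 257 CPM in replicate 2 (905 counts), with a mean of 294 ± 52.7 CPM (SD, n = 2) and rank 122. These values lay below both values of Mir137 and above both of Mir138-1. On mm10 the gene (ENSMUSG00000065600.1) runs from 120014765 to 120014862 on the minus strand of chromosome 11.

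Mir3065 is annotated opposite Mir338 on the plus strand, and the mature strand of Mir3065 lies across that of Mir338. This is why its sequence is shown, with the seed in capitals.
miR-3065-5p: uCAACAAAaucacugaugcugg

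On its own strand Mir3065 had 5 counts in replicate 1 and 3 in replicate 2, against the 3399 and 905 counts of Mir338. The reads of this locus were thus almost all on the strand of Mir338 in both libraries. In the column that ignores strand both genes stood at 0 in both replicates, and Mir338 can be read from the stranded column only. The other 8 genes had the same count in the stranded column and in the one without strand, and no count on the opposite strand.

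The Mir138 copies came next. miR-138 is known for limiting the size of dendritic spines. Mir138-1 had 73.7 CPM in replicate 1 (756 counts) and 33.2 CPM in replicate 2 (117 counts), with a mean of 53.4 ± 28.6 CPM (SD, n = 2). Mir138-2 had 19.9 CPM (204 counts) and 14.2 CPM (50 counts), with a mean of 17.0 ± 4.03 CPM. Mir138-1 was the higher copy in both libraries. It gave 78.8% of the counts of the 2 copies in replicate 1 (exact 95% interval from 76.0% to 81.3%) and 70.1% in replicate 2 (62.5% to 76.9%). These intervals cover counting error of reads only, as do all intervals given here, and hold no further spread between libraries. Copies of a molecule made by PCR also cannot be told from separate molecules. Mir138-1 lies on mm10 chromosome 9 from 122682876 to 122682974 and overlaps an exon of the pseudogene Gm47135. Mir138-2 lies on chromosome 8 from 94324311 to 94324381 and overlaps an exon of the lincRNA C78859.

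The Mir128 copies were unequal. miR-128 is enriched in brain and known for damping neuronal excitability, and its genes lie in introns of R3hdm1 (Mir128-1) and of Arpp21 (Mir128-2), the latter a gene of striatal neurons. Mir128-1 had 14.7 CPM in replicate 1 (151 counts) and 32.3 CPM in replicate 2 (114 counts), with a mean of 23.5 ± 12.5 CPM (SD, n = 2). Mir128-2 had 4 counts and 3 counts, or 0.390 and 0.851 CPM, with exact 95% intervals from 0.106 to 0.998 CPM and from 0.175 to 2.49 CPM. Mir128-1 thus gave 97.4% of the counts of the 2 copies in both replicates, with intervals from 93.5% to 99.3% and from 92.7% to 99.5%. As shown by the sequences, both copies have a 5p strand that can be placed, and a 3p read within the shared 23 nt cannot be. Counts per arm were not measured. On mm10 Mir128-1 runs from 128202361 to 128202430 on chromosome 1 and Mir128-2 from 112118636 to 112118711 on chromosome 9.

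The Mir218 copies were close to each other. miR-218 lies in introns of the axon guidance genes Slit2 (Mir218-1) and Slit3 (Mir218-2). Mir218-1 had 5.65 CPM (58 counts) and 8.51 CPM (30 counts) in replicates 1 and 2, and Mir218-2 had 10.3 CPM (106 counts) and 9.08 CPM (32 counts). Their means were 7.08 ± 2.02 and 9.70 ± 0.885 CPM (SD, n = 2). Mir218-1 gave 35.4% of the counts of the copies in replicate 1 (28.1% to 43.2%) and 48.4% in replicate 2 (35.5% to 61.4%). In replicate 1 Mir218-2 was therefore higher beyond counting error, and in replicate 2 the interval held equal shares. Mir218-2 passed the detection threshold of 10 CPM in replicate 1 and missed it in replicate 2, and Mir218-1 missed it in both. Mir218-1 lies on mm10 chromosome 5 from 48223942 to 48224051 and Mir218-2 on chromosome 11 from 35616816 to 35616925.

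Mir9-3, from the family known for neural progenitors, had no count in replicate 1 and 1 count in replicate 2. With the one-sided limit of 3 counts for a count of 0, replicate 1 allows 0.292 CPM of reads placed at this locus. It sets no limit on miR-9 itself, because both arms are shared with Mir9-1 and Mir9-2, which also had no count in either replicate. Among the 71 windows of the Mir9-3 hairpin, 58 were found in no other hairpin, all of them reaching outside its arms. Mir9-3 lies on mm10 chromosome 7 from 79505264 to 79505353, in an intron of the lincRNA Mir9-3hg.

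**Figure D2:**
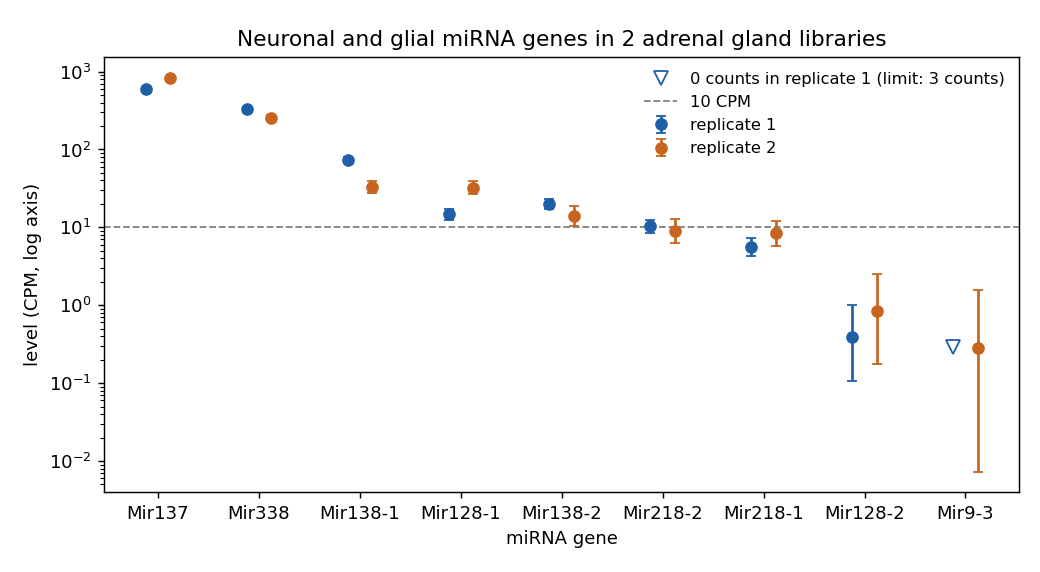
Levels of the 9 genes in CPM on a log axis, in order of their mean, with a point for each replicate and exact 95% counting intervals; the open triangle stands at the limit of 3 counts for Mir9-3 in replicate 1. Mir137 and Mir338 lie above 250 CPM in both libraries, 3 genes lie between 10 and 100 CPM, and Mir128-2 and Mir9-3 lie under 1 CPM.

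The order of the means was Mir137, Mir338, Mir138-1, Mir128-1, Mir138-2, Mir218-2, Mir218-1, Mir128-2 and Mir9-3. The replicate values of Mir128-1 (14.7 and 32.3 CPM) and Mir138-2 (19.9 and 14.2 CPM) overlapped, so these neighbours did not differ beyond their spread. The other neighbours did not overlap, although the gap was small between Mir138-1 at its lowest (33.2 CPM) and Mir128-1 at its highest (32.3 CPM), and between Mir218-2 at its lowest (9.08 CPM) and Mir218-1 at its highest (8.51 CPM), where the counting intervals overlapped. Counting intervals also overlapped between Mir138-2 in replicate 2 (10.5 to 18.7 CPM) and Mir218-2 in replicate 1 (8.46 to 12.5 CPM). Mir128-2 and Mir9-3 rest on a few counts, with overlapping intervals too. For 7 of the 9 genes the order ranks reads that could be placed, not mature strands.

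The genes sat far below the most abundant miRNAs of the profile. Mir375, the miRNA of neuroendocrine cells, was 114 times as high as Mir137 in replicate 1 and 92.4 times as high in replicate 2. It was 205 and 296 times as high as Mir338. The genes nearest to Mir137 in level, by distance between the log2(CPM + 1) values over the 2 libraries, were Mirlet7c-1 (611 and 835 CPM), Mir376c (614 and 788 CPM) and Mir214 (595 and 881 CPM). Nearest to Mir338 were Mir540, Mir467e and Mirlet7f-1, and nearest to Mir138-1 were Mir450b, Mir183 and Mir212. Mir325, Mir488 and Mir6516 lay nearest to Mir138-2, and Mir8112, Mir181a-2 and Mir410 nearest to Mir128-1. With 2 libraries this likeness describes levels only.

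**Figure D3:**
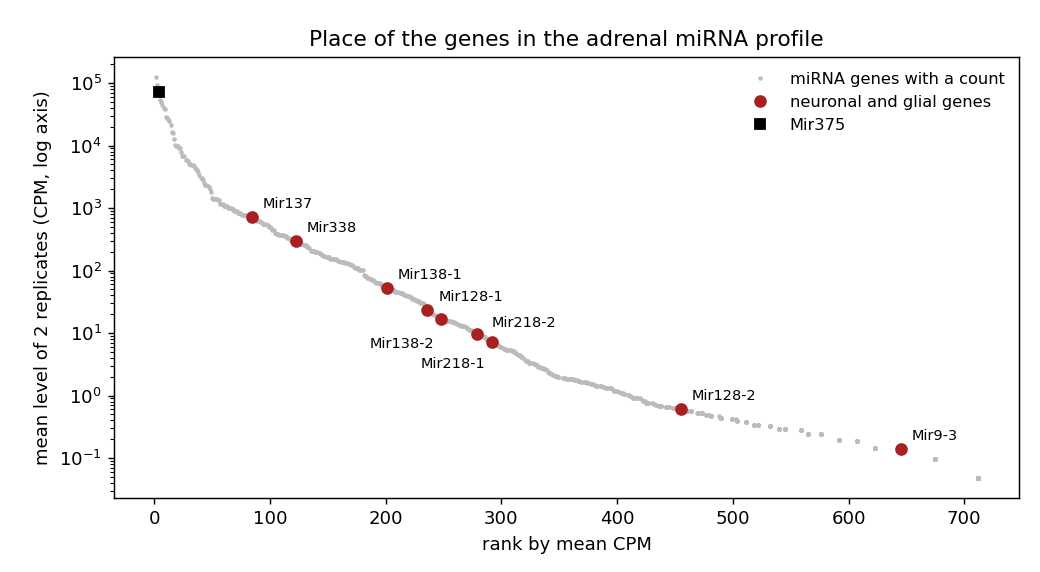
Mean level of 2 replicates in CPM, on a log axis, against rank for the miRNA genes with a count, with the 9 genes in red and Mir375 as a black square. Mir137 stands at rank 84 and Mir9-3 at rank 645, so the 9 genes run over almost the whole range below the most abundant miRNAs.

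Other nervous system miRNAs give the setting. Of 16 further genes in this list, which was written with earlier results of these data known, 9 were detected, against 12.1% of all miRNA genes. The list took 0.192% of counts in replicate 1 and 0.142% in replicate 2. Its leading gene was Mir132, a miRNA induced by neuronal activity and by ACTH in adrenal cells, with 1302 CPM in replicate 1 and 673 CPM in replicate 2, above both values of Mir338. Mir383 (274 and 231 CPM) was close to Mir338, and Mir129-2 (141 and 235 CPM) and Mir153 (61.2 and 156 CPM) lay between Mir338 and Mir138-1 by their means. Mir212 had 63.3 and 42.0 CPM and Mir129-1 had 26.2 and 34.9 CPM. Mir219a-1 (16.4 and 18.2 CPM), Mir488 (17.5 and 15.6 CPM) and Mir384 (15.1 and 15.6 CPM) lay at the level of Mir138-2.

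The label of these genes as neuronal and glial was set against defining markers. The neuronal markers Mir124a-1, Mir124a-2, Mir124a-3, Mir9-1 and Mir9-2 had no count in either replicate, and each of these 5 hairpins has 20 nt windows in common with a further hairpin, which leaves their level unknown. Of the marker list for neurons, which holds 10 genes, 3 were detected, against 12.1% of all miRNA genes. The summed level of this list was 0.0672% of counts in replicate 1 and 0.101% in replicate 2. The list set up for glial and Schwann cells held Mir338, the Mir219a genes and both Mir138 genes. Of these 5 genes 4 were detected, against the same 12.1% of all miRNA genes. The list summed to 0.0441% and 0.0322% of counts, but miR-138 is also a miRNA of neurons, so this sum is not one of glial genes alone. Mir219a-1, whose strand is known from myelinating glia, was detected, and Mir219a-2 had 1 count in replicate 1 and none in replicate 2. These hairpins also share 20 nt windows, Mir219a-1 with Mir219a-2 and Mir219b, and Mir219a-2 with Mir219a-1 and Mir219c. Their counts therefore leave the level of the strand unknown. Both marker lists hold genes of the 9 themselves. The detected neuronal genes were Mir137, Mir128-1 and Mir153, and Mir137 gave 6111 of the 6894 counts in replicate 1. The detected genes of the glial list were Mir338, both Mir138 genes and Mir219a-1, and Mir338 gave 3399 of 4528 counts in replicate 1. In replicate 2 Mir137 gave 2901 of 3570 and Mir338 gave 905 of 1136. Both sums thus mostly repeat levels of the 9 genes and are no separate check of their label. Reads of the 9 genes were present in the libraries, though Mir9-3 rests on 1 count and Mir128-2 on 4 and 3 counts. Listed markers of other organs were counted too. In replicates 1 and 2 the liver marker Mir122 had 104 and 97.6 CPM. The kidney markers had 46.0 and 70.1 CPM (Mir192) and 25.6 and 11.3 CPM (Mir194-2), while neither skeletal muscle marker was detected. Whether the reads came from cells of the gland was not tested. The part of the gland or the cell type was not measured.

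In the RefSeq table, no other miRNA gene at 10 CPM or more in both replicates carried the seed of any of the 6 main strands. Mir7002, the sole other gene with the miR-218-5p seed at bases 2 to 8, had 2 counts in replicate 1 and none in replicate 2. The 7 seed bases of miR-128-3p also occur in miR-27a-3p and miR-27b-3p, shifted by 1 base towards the 3′ end. This match was looked for after the sequences had been seen. Mir27b had 3397 and 2565 CPM and Mir27a had 675 and 817 CPM, well above the placed reads of Mir128-1.

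The libraries differed gene by gene. Each gene with at least 10 counts over both replicates was tested by an exact two-sided binomial test against TMM-scaled library sizes with Benjamini-Hochberg adjustment, which compares these 2 libraries and no conditions. Over all 443 genes tested 52.8% passed, 31.6% as higher in replicate 1 and 21.2% as higher in replicate 2. Of the 9 genes 7 could be tested and 5 passed. Of these 5, Mir338 and both Mir138 genes were higher in replicate 1, and Mir137 and Mir128-1 were higher in replicate 2. The median log2 ratio of replicate 2 over replicate 1 was -0.19 over the 7 genes and -0.17 over all genes tested, and the median size of the ratio was 0.49 and 0.45, so the spread of these genes was near that of the whole table.

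Mir137 and Mir128-1 were higher in replicate 2. Mir137 had a log2 ratio of 0.45 (95% interval from 0.39 to 0.51, exact binomial test, adjusted p = 5.1e-41). The ratio of Mir128-1 was 1.12 (0.75 to 1.48, adjusted p = 4.56e-09 by the exact binomial test), or 2.17-fold. Mir338, Mir138-1 and Mir138-2 were higher in replicate 1. Their log2 ratios were -0.38 (-0.49 to -0.28), -1.16 (-1.46 to -0.89) and -0.49 (-0.98 to -0.05), with adjusted p of 1.15e-12, 2.26e-18 and 0.0494 by the exact binomial test. Mir218-1 had a log2 ratio of 0.58 (-0.11 to 1.23) and Mir218-2 one of -0.19 (-0.82 to 0.38), with adjusted p of 0.148 and 0.677 by the exact binomial test, so at this depth no difference was detectable for these genes. Mir128-2 and Mir9-3 had too few counts to be tested.

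The exact binomial test covers counting error alone. The edgeR test that follows takes its spread from the same 2 libraries that it compares. Few calls can arise from it, and their lack does not show that the libraries agree. Its coefficient is biological in name only, since animals and technique cannot be told apart here. With the spread of all genes between the libraries put in, a common biological coefficient of variation of 32.9% in edgeR, the exact test of edgeR called 0 of the 9 genes and 1 of the 443 genes, and none of the 9 had an unadjusted p below 0.05, against 27 of the 443 genes. The call of Mir138-2 also ended with library totals (adjusted p = 0.0589 by the exact binomial test) and with DESeq2 size factors (adjusted p = 0.092 by the same test).

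**Figure D4:**
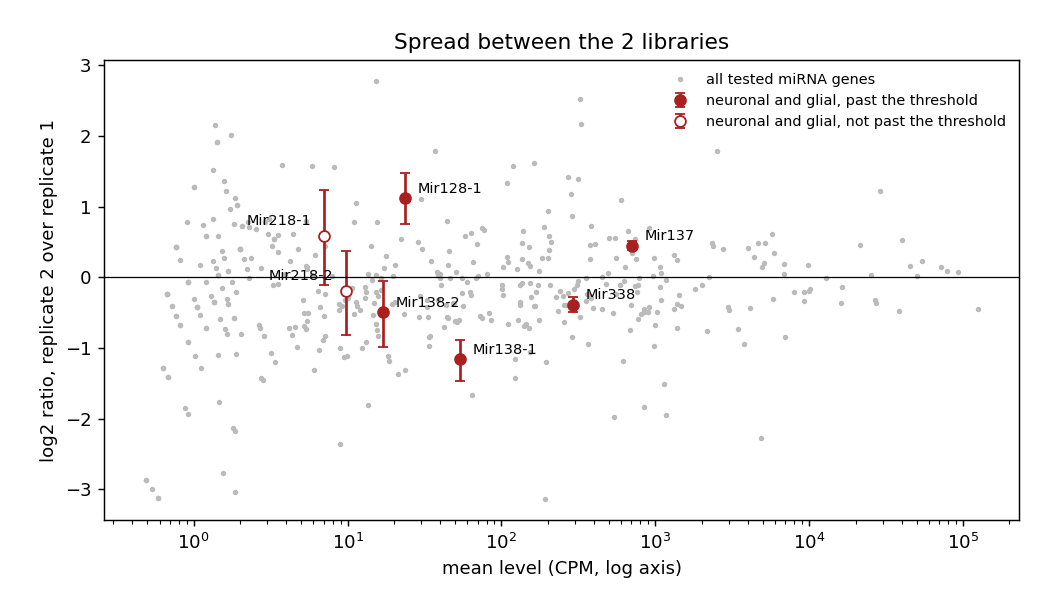
Log2 ratio of replicate 2 over replicate 1 against mean CPM on a log axis for all tested miRNA genes (grey) and the 7 tested genes of the set (red, with exact 95% intervals; filled where the binomial test passed). Mir128-1 at 1.12 and Mir138-1 at -1.16 lie farthest from 0 in opposite directions, and the 7 genes lie within the cloud of all genes.

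Among the nervous system genes outside the 9, Mir153 and both Mir129 genes were higher in replicate 2 by the exact binomial test, and Mir132, Mir212 and Mir383 were higher in replicate 1. These are 6 of 9 genes tested in that list of 16, against 52.8% of all genes tested. Calls thus went both ways among the 9 genes and among the other nervous system genes. Markers of other cells differed to unlike degrees. The endothelial marker took 8.99% of counts in replicate 1 and 9.56% in replicate 2, and the smooth muscle markers took 2.56% and 2.66%. Of the 2 kidney markers, 1 was higher in each replicate. The liver marker did not pass the test, and neither did the 1 skeletal muscle marker that could be tested. Both erythroid markers were higher in replicate 1, with a summed share of 0.836% against 0.180%, and the 3 leukocyte markers were higher in replicate 2, with 0.0508% against 0.0876%. The neuroendocrine list took 7.36% and 8.02%, nearly all of it Mir375, while 5 of its 7 genes were higher in replicate 1 and 2 in replicate 2. Whether the cell makeup of the samples has a part in the ratios of the 9 genes was not tested.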

How the data were processed

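The authors deposited raw read counts per miRNA gene, in 1 table per library with 3 columns and 4 summary lines, on mm10 with GENCODE M21 annotation per the file headers of the accompanying descriptions. Aligner and counter were not given in the sources used here. The second column was taken as counts on the strand of the gene, since its sum was far above that of the third column and it had no ambiguous reads. Unmapped, multimapping and no-feature lines stayed out of library sizes. Symbols, positions and host genes came from GENCODE M21 (all 2202 identifiers matched) and mature sequences from RefSeq on GRCm38.p6, where all 9 genes matched. Arms were searched in the GENCODE hairpins only, since no genome sequence was used here.

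CPM, exact intervals and binomial tests were computed in Python 3.11.15 with scipy 1.17.1, and TMM factors (0.994 and 1.006) and the exact test in edgeR 4.0.16 under R 4.3.3. Size factors came from DESeq2 1.42.0. The binomial test was tried on simulated counts with counting error alone, which does not show how it behaves under the wider spread of these libraries. Log2 ratios had 0.5 counts added. With 1 group there is no contrast of conditions. The 9 genes, the marker lists and the tests were chosen with earlier results of these data known. The text names all 9 genes, listed nervous system genes detected or sharing a mature form with them, the 3 genes nearest in level to each detected gene, and neighbours and seed matches.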

Additional observations from a re-analysis of the deposited data

Results flagged for a closer look

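The column of counts on the opposite strand, which enters none of the levels above, held 5 counts at Mir338 in replicate 1, above the 3 counts that a count of 0 allows, and 3 counts in replicate 2. Mir3065 is annotated on that strand and had the same 5 and 3 counts as its own. None of the other 8 genes had a count on the opposite strand. A group of 2 libraries is too small for a test of outliers.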

How the results depend on the processing

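No paired analysis was possible because the series has 1 group. With all reads of a library as the total, in place of counts assigned to miRNA genes, mean levels per 1000000 reads were 285 for Mir137, 125 for Mir338, 23.9 for Mir138-1, 7.30 for Mir138-2, 9.03 for Mir128-1, 0.238 for Mir128-2, 2.82 for Mir218-1 and 4.08 for Mir218-2, and the 9 genes took 0.0457% of reads, the total then holding unmapped reads (13.8% and 41.4%) and multimapping reads (32.6% and 22.7%). In counts without regard to strand, where reads at opposite-strand genes are not assigned, Mir338 had 0, Mir218-2 had 11.1 CPM and the 9 genes took 0.0937%. In this setting 3 of them passed the replicate test in place of 5, against 206 of all 418 genes tested (49.3%). The counts of Mir218-2 were the same in both columns, and its CPM rose because the total was smaller, as did that of Mir137 (810 CPM). Without the most abundant miRNA gene in the total, the share of the 9 genes was 0.127%. At 100 CPM in both replicates, 2 were detected in place of 5. The edgeR exact test takes its spread from the same 2 libraries that it compares, so it is no independent check of the replicate test. Mir138-2 had log2 ratios of -0.48 with library totals, -0.43 with DESeq2 size factors and -0.42 without regard to strand, none past the threshold. No filter on low counts gave 226 calls among 767 genes, and a filter of 50 counts gave 225 among 322. No alternative that was run reversed a ratio. TMM-scaled levels stayed within the replicate SD, and windows of 18 or 22 nt or RefSeq hairpins (the last chosen after seeing the data) kept counts within 1.5 times. Either replicate alone lies within the SD of 2 values by arithmetic, so it is no check of the levels. The detected genes numbered 6 in replicate 1 alone and 5 in replicate 2 alone. Depth limits Mir128-2 and Mir9-3 most, at 4 and 3 counts and 0 and 1 count.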
